A study of Mus musculus with 6 samples.

Results

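The genes described here encode proteins of the retina and the lens, tissues of the eye whose antigens medullary thymic epithelial cells (mTECs) can transcribe. The members were 31 named genes, 16 of the retina and 15 of the lens, chosen by name for their place in phototransduction, photoreceptor identity or lens structure. All 31 had a row in the tables, out of 20443 genes in all, and 24 (12 of the retina and 12 of the lens) averaged at least 0.5 FPKM, the level from which genes were tested. FPKM, the unit of every level below, counts fragments per kilobase of transcript and is scaled to the mapped fragments of a library, so that levels of different genes can be set side by side. RNA came from mTECs sorted from C57BL/6 mice at 4 weeks of age. The Jmjd3-deficient group (libraries cKO_262, cKO_263 and cKO_265) carried floxed Jmjd3 alleles and Foxn1-cre, a Cre driven by the promoter of a gene of thymic epithelium in general, cortical cells included. The control group (Con_253, Con_261 and Con_264) carried the floxed alleles without Cre, so that loss of Jmjd3 and presence of Cre cannot be told apart. Jmjd3, gene symbol Kdm6b, removes methyl groups from lysine 27 of histone H3, a mark of silent promoters.

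Medullary epithelial cells transcribe genes that otherwise belong to single peripheral organs and show the peptides to developing T cells, which are deleted or diverted when they recognise them. Antigens of the eye are a classic case. The photoreceptor proteins S-antigen (retinal arrestin, Sag) and interphotoreceptor retinoid-binding protein (Rbp3) induce uveitis when mice or rats are immunised with them, and mice lacking the transcriptional regulator Aire develop autoimmunity against the retina. In photoreceptors, light leads to activation of the G protein transducin, which releases a phosphodiesterase from its inhibitory subunits and lowers cyclic GMP. Calcium-sensing proteins and arrestin then return the cell to the dark state. The lens is built of fibre cells packed with crystallins, of which the alpha class are small heat-shock chaperones and the beta and gamma classes are structural, along with membrane channels and beaded filaments.

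The libraries were read as follows before the eye genes were compared. Summed FPKM was 582835 to 641060 in Jmjd3-deficient and 461152 to 543156 in control libraries, and the tables hold no read counts, so depth is unknown. Genes listed at 0 numbered 1635, 1632 and 1793 in cKO_262, cKO_263 and cKO_265. They numbered 1813, 905 and 854 in Con_253, Con_261 and Con_264. The part of this in the values of genes near 0 was not tested. On the first principal component cKO_265 scored 53.02 and the other 5 libraries -22.7 to 7.42, and Y-linked transcripts such as Eif2s3y (7.88 FPKM in Con_253) were near 0 elsewhere. Library values of Jmjd3-deficient cells are listed as cKO_262, cKO_263, cKO_265, and those of control cells as Con_253, Con_261, Con_264. Kdm6b, the targeted gene, was at 11.1, 11.6 and 8.67 FPKM in Jmjd3-deficient libraries and at 18.1, 17.1 and 9.998 FPKM in controls. Its groups overlapped, the difference did not pass (log2 fold change -0.45, SE 0.23, limma adjusted p = 0.418), and the deleted part of the gene is not given, so this value does not check the labels. The 10 mTEC markers found in the tables were all present, with summed levels of 6672 to 8236 FPKM in Jmjd3-deficient and 6601 to 7726 FPKM in control libraries. Markers of tuft-like mTECs had lower values in Jmjd3-deficient cells. Their summed level was 48.2 to 79.3 FPKM in Jmjd3-deficient and 169.4 to 212.2 FPKM in control libraries, and all 10 had lower values without overlap. Thymocyte markers summed to 33.8 to 39.04 FPKM in Jmjd3-deficient and 46.3 to 73.8 FPKM in control libraries (6 of 11 lower without overlap), and those of macrophages and dendritic cells to 316.6 to 354.1 FPKM in Jmjd3-deficient and 405.2 to 477.5 FPKM in control libraries (2 of 12 lower and 1 higher). Endothelial markers summed to 6.02 to 7.75 FPKM in Jmjd3-deficient and 9.26 to 9.997 FPKM in control libraries (3 of 7 lower without overlap). Over all tested genes, 11.9% were lower and 9.59% higher without overlap, and the count of macrophage and dendritic cell markers is near those shares. The part of these shifts in any difference below was not tested. In such bulk samples, fewer cells of a type and less RNA per cell cannot be told apart.

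Promoters show what the eye genes share by sequence. RefSeq promoter windows (GRCm38.p6, which is mm10, from 250 bases before to 50 after the start) matched 25 of the members, 11 of the retina and 14 of the lens. These starts can differ from the ends of the gene spans in the tables. The windows of Bfsp2, Lgsn and Nrl lie inside those spans, and may not be promoters of the transcripts measured. The sequences are those of Guca1a, Mip, Cryba2 and Bfsp1, members singled out by their values below, and of Sag and Crx, a retinal antigen and a photoreceptor factor whose groups overlapped. Each runs 5' to 3' on the gene's strand, and capitals mark the letters TAATCC (the core bound by CRX and other OTX-type factors), TGCTGA (the core bound by MAF factors and NRL) and TATAAA (the TATA box), on either strand.
Guca1a: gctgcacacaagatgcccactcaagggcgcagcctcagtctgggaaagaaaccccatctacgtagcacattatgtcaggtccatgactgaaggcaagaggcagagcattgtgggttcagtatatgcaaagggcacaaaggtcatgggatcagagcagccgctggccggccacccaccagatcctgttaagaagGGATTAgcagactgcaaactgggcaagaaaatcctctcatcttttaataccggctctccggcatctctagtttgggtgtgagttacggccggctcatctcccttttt
Sag: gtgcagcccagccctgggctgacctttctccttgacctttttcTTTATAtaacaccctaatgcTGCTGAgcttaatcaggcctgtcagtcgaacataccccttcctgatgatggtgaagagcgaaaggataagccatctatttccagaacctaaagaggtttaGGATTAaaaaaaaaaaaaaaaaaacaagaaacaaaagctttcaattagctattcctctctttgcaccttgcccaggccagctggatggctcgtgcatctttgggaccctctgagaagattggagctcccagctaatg
Crx: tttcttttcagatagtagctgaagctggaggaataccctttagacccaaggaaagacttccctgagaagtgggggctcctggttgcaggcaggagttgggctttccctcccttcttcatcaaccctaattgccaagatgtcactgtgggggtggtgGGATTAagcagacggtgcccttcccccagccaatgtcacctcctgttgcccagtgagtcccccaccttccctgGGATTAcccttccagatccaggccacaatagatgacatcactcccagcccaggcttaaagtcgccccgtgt
Mip: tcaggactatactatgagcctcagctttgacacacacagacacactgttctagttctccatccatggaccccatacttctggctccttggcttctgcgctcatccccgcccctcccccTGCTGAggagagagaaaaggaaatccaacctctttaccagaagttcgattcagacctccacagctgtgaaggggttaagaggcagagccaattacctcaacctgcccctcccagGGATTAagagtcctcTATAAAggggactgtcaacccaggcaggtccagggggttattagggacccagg
Cryba2: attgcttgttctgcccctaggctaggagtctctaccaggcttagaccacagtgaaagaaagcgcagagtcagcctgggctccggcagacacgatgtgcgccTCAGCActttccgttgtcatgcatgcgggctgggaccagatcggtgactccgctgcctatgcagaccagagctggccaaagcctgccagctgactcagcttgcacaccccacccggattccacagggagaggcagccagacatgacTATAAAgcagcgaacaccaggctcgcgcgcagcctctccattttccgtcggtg
Bfsp1: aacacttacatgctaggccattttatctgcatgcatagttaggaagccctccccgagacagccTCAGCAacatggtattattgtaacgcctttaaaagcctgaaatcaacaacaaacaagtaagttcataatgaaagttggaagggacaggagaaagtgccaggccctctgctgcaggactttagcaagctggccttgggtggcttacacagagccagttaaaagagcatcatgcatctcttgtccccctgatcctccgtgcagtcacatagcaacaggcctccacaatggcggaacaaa
They lie at chr17:47400557-47400856 on the minus strand for Guca1a, chr1:87803430-87803729 (plus) for Sag, chr7:15879906-15880205 (minus) for Crx, chr10:128225560-128225859 (plus) for Mip, chr1:74893094-74893393 (minus) for Cryba2 and chr2:143863124-143863423 (minus) for Bfsp1.

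The CRX core was present in 6 of the 11 retina windows (54.5%), against 7.06% of all 32851 windows, and in 2 of the 14 lens windows (14.3%). The retina genes with a match were Gngt1, Sag, Guca1a, Rbp3, Rpe65 and Crx. The core of Guca1a began 57 bases before the RefSeq start of its window, which is not the end of the gene span given below. The MAF and NRL core was present in 11 of 14 lens windows (78.6%) and 3 of 11 retina windows (27.3%), against 19.5% of all windows, and the window of Cryba4 held 3 copies. The letters TATAAA, at any position on either strand, were in 6 lens windows (42.9%) and 2 retina windows (18.2%), against 13.6% of all windows. The retina matches, in Sag and Gngt1, lay on the other strand, 207 and 133 bases before the start. Eye promoters were poor in CpG. The median ratio of observed to expected CpG was 0.204 in retina and 0.22 in lens windows, against 0.384 over all windows, and 0 of the 25 reached 0.6, against 35.8% of all windows. In the windows of the members no match of one motif overlapped a match of another. The matches describe these letters in these windows and are not measured binding sites.

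In mTECs the retina genes were low. Their summed level was 32.8, 35.4 and 23.3 FPKM in cKO_262, cKO_263 and cKO_265 and 36.4, 39.4 and 29.5 FPKM in controls. Rcvrn had the highest mean, followed by Rom1 and Sag, and between 7 and 10 of the 16 genes reached 1 FPKM in Jmjd3-deficient libraries, against 7 or 8 in controls. The median tested gene of the whole table averaged 6.74 FPKM over the 6 libraries, and the median of the 12 tested retina genes averaged 1.81 FPKM (1.20 FPKM over all 16, untested ones included). The lens genes summed to 216.7, 227.9 and 199.8 FPKM in the Jmjd3-deficient libraries and 223.4, 193.2 and 142.04 FPKM in the controls, most of it from Cryab. Without Cryab the sums were 63.5, 81.1 and 43.99 FPKM in cKO_262, cKO_263 and cKO_265 and 81.3, 73.01 and 53.5 FPKM in controls. The ranges of the groups overlapped in each of these sums, and cKO_265 was the lowest library of the retina sum. As a share of the summed FPKM of the library, which was higher in Jmjd3-deficient libraries, the retina genes made up 0.00564%, 0.00558% and 0.00363% in Jmjd3-deficient and 0.00670%, 0.00776% and 0.00640% in control libraries, without overlap. The lens genes made up 0.0372%, 0.0359% and 0.0312% in Jmjd3-deficient and 0.0411%, 0.0381% and 0.0308% in control libraries, with overlap. This scaling lowered the values of genes in general in Jmjd3-deficient cells. With libraries scaled to an equal sum, the median log2 fold change was -0.296 over all tested genes. It was -0.27 over the tested retina genes. These medians are taken gene by gene and the share is a sum, so they do not measure the same thing. Whether the lower share is particular to the retina genes was not tested.

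**Figure D1:**
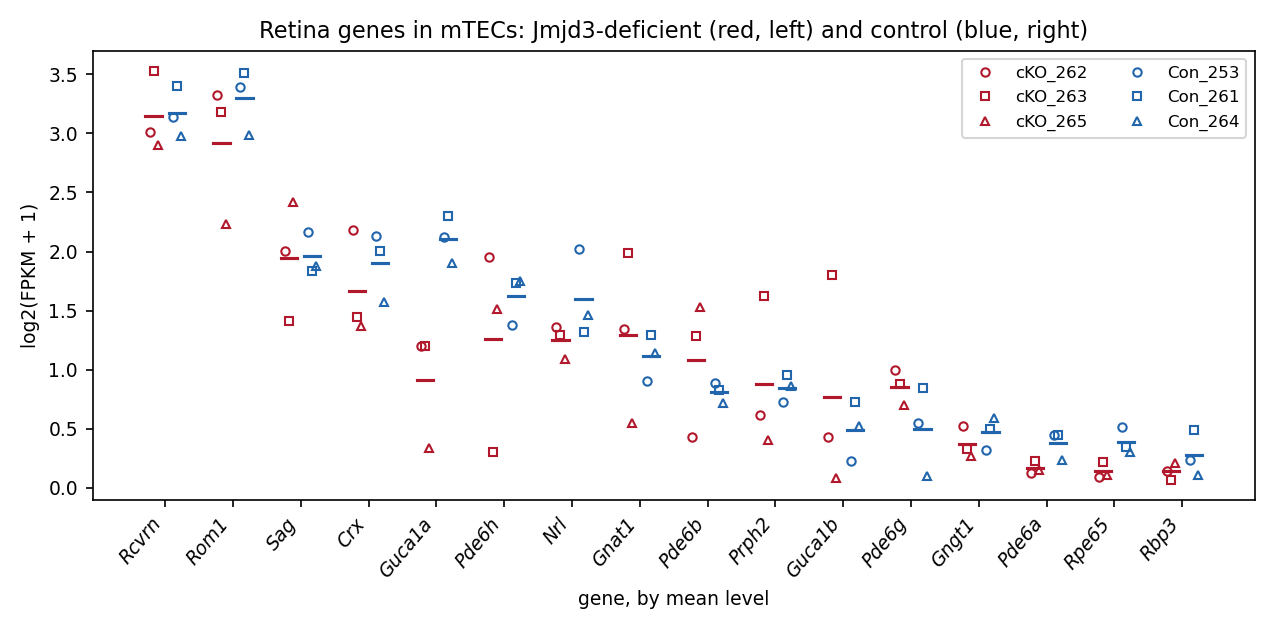
Levels of the 16 retina genes as log2(FPKM + 1), ordered by their mean, with 1 point per library (red and left, Jmjd3-deficient; blue and right, control) and a bar at each group's mean. Guca1a, Pde6a and Rpe65 are the genes whose groups do not overlap, and cKO_263 is the highest library for Gnat1, Prph2 and Guca1b and the lowest for Pde6h.

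No retina or lens gene passed the test over all 15720 genes. The count of changed members was 0 of 12 retina and 0 of 12 lens genes (limma on log2(FPKM + 1), Benjamini-Hochberg adjusted p under 0.05), beside 0.0191% of all tested genes called higher and 0.0573% called lower in Jmjd3-deficient cells (0.0763% in either direction). The smallest adjusted p was 0.1245 for Guca1a in the retina and 0.188 for Mip in the lens. At an unadjusted p under 0.05, 1 retina gene (Guca1a) and 2 lens genes (Mip and Cryba2) were lower and 0 were higher, beside 7.82% of all tested genes lower and 6.81% higher. Groups did not overlap for 2 tested members with lower values (Guca1a and Mip) and for 2 with higher values (Cryab and Bfsp1), beside 11.9% and 9.59% of all tested genes. These counts of 24 members are close to the background shares. The median log2 fold change was -0.02 over the tested retina genes and 0.03 over the tested lens genes, with a median of -0.04 over all tested genes. Values were below 0 for 7 of 12 retina genes and 6 of 12 lens genes, beside 54.7% of all tested genes, while 45.3% were above 0. Over all listed genes, untested ones included, 11 of 16 retina values were below 0 with a median of -0.12, and 8 of 15 lens values were below 0 with a median of -0.00084. Without the filter, the median over all 20152 genes with any value was -0.0393. The share of those genes below 0 was not counted, so the 11 of 16 has no like background here. All 4 untested retina genes had lower means on the log scale in Jmjd3-deficient cells. Genes under the level for testing leaned the same way. Of all 4432 with any value, 10% were lower and 1.13% higher without overlap.

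**Figure D2:**
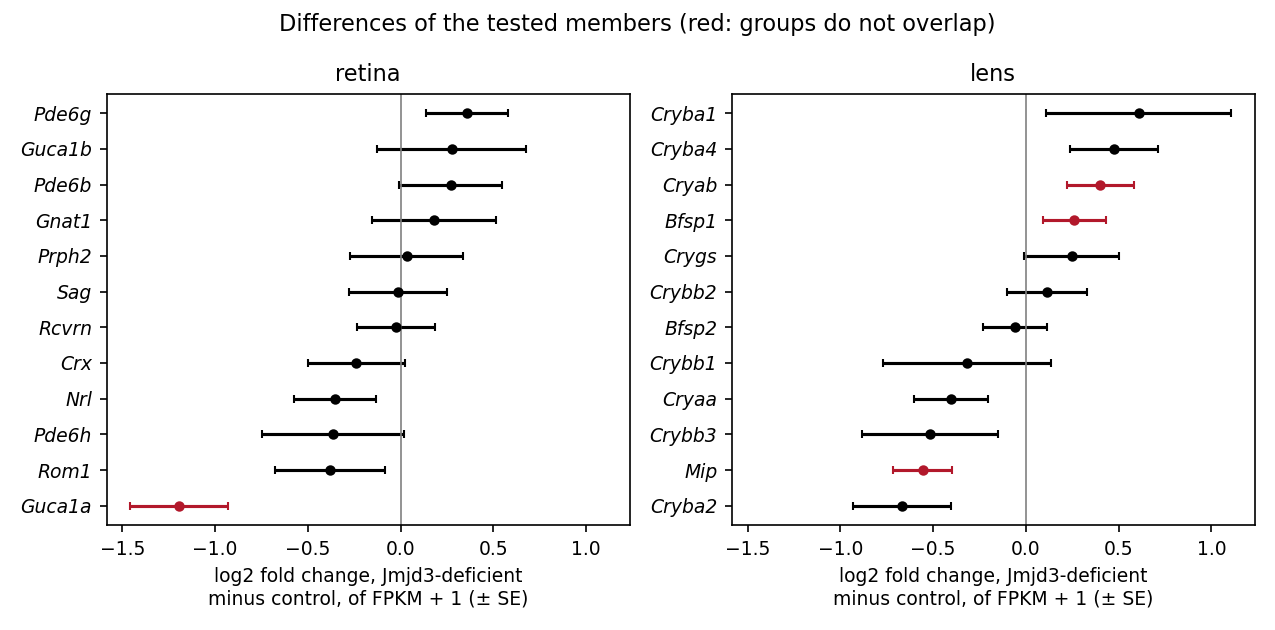
Log2 fold change (Jmjd3-deficient minus control, of FPKM + 1) of the 24 tested members with its standard error, retina on the left and lens on the right. Red marks the 4 members whose groups do not overlap, and Guca1a, at -1.19, lies farthest from 0.

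Guca1a encodes a calcium-sensing protein (GCAP1) that switches on retinal guanylate cyclase when calcium falls. It was at 1.30, 1.30 and 0.268 FPKM in Jmjd3-deficient libraries and at 3.35, 3.93 and 2.75 FPKM in controls. Every control library lay above every Jmjd3-deficient library, and cKO_265 was the lowest. The group means were 0.957 ± 0.597 FPKM in Jmjd3-deficient and 3.34 ± 0.590 FPKM in control cells (SD, n = 3 each), a log2 fold change of -1.19 (SE 0.26) that did not pass (limma adjusted p = 0.1245). The difference was negative in all 14 alternative settings that kept the gene (-1.93 to -0.90). Adjusted p ran from 0.00468 with library weights to 0.456 without Con_261, and it was 0.0438 when each library was scaled to the same sum. Over all genes, library weights called 3025 of 15720 and that scaling called 207 of 16868. Without both Con_253 and cKO_265, the library with Y-linked transcripts and the one far out on the first component, the difference was -0.90 (adjusted p = 0.154).

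The neighbour of Guca1a is its paralog Guca1b (GCAP2), and their 3' ends face each other. Guca1a spans chr17:47394558-47400584 on the minus strand and Guca1b chr17:47385393-47392967 on the plus strand of mm10, with 1590 bases between them. Both are annotated as protein coding. Guca1b was at 0.345, 2.48 and 0.0573 FPKM in Jmjd3-deficient libraries and at 0.169, 0.657 and 0.442 FPKM in controls. cKO_263 alone was high, and the other Jmjd3-deficient libraries lay within or below the range of the controls. Guca1a was above Guca1b in all 3 controls and in 2 of 3 Jmjd3-deficient libraries, cKO_263 being the exception. The log2 fold change of Guca1b was 0.28 (SE 0.40, limma adjusted p = 0.799). Without cKO_263 the gene averaged 0.334 FPKM, under the level for testing, and the plain difference of the log2 means was -0.24.

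Subunits of transducin and of the phosphodiesterase come next. Gnat1, the alpha subunit of rod transducin, was at 1.54, 2.96 and 0.464 FPKM in Jmjd3-deficient libraries and at 0.868, 1.45 and 1.21 FPKM in controls. The spread of the Jmjd3-deficient libraries enclosed that of the controls, and without cKO_263 its small positive difference (0.18, SE 0.33, adjusted p = 0.846) was -0.16. Gngt1, the rod gamma subunit, stayed between 0.206 and 0.507 FPKM in all libraries and was not tested. Gnat1 was above Gngt1 in all 6.

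The catalytic subunits of the rod phosphodiesterase, Pde6a and Pde6b, work as a pair in rods but were unequal here. Pde6b was above Pde6a in all 6 libraries. Pde6a, under the level for testing, was at 0.0913, 0.169 and 0.111 FPKM in Jmjd3-deficient libraries and at 0.363, 0.367 and 0.181 FPKM in controls. Its Jmjd3-deficient values all lay below its control values. Such a pattern was found in 10% of the 4432 genes under that level that had any value, and the opposite one in 1.13%. Pde6b was at 0.349, 1.43 and 1.89 FPKM in the Jmjd3-deficient libraries and between 0.644 and 0.852 FPKM in the controls. Its groups overlapped through cKO_262 (log2 fold change 0.27, SE 0.28, adjusted p = 0.7005).

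The inhibitory subunits were Pde6g of rods and Pde6h of cones. Pde6g was at 0.993, 0.836 and 0.625 FPKM in Jmjd3-deficient libraries and at 0.463, 0.796 and 0.074 FPKM in controls (log2 fold change 0.36, SE 0.22, adjusted p = 0.493). Pde6h was at 2.88, 0.238 and 1.85 FPKM in the Jmjd3-deficient libraries and at 1.61, 2.33 and 2.37 FPKM in the controls (log2 fold change -0.36, SE 0.38, adjusted p = 0.706). The cone form was above the rod form in 5 of 6 libraries. cKO_263 was again the exception, and without it the Pde6h difference was 0.11.

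Sag and Rcvrn act in the recovery of photoreceptors from light. Sag, the arrestin of rods, was at 3.02, 1.66 and 4.36 FPKM in Jmjd3-deficient libraries and at 3.50, 2.58 and 2.68 FPKM in controls. The controls lay inside the range of the Jmjd3-deficient libraries, with means of 3.01 ± 1.35 FPKM in Jmjd3-deficient and 2.92 ± 0.503 FPKM in control cells (SD, n = 3 each). The log2 fold change was -0.02 (SE 0.26, limma adjusted p = 0.985), and its sign turned in 4 alternatives. Recoverin, Rcvrn, a calcium sensor of photoreceptors, had the highest mean of the retina set. It was at 7.05, 10.5 and 6.46 FPKM in Jmjd3-deficient libraries and 7.79, 9.56 and 6.86 FPKM in controls, with overlapping groups and a log2 fold change of -0.03 (SE 0.21, adjusted p = 0.971), of either sign across the alternatives. Rcvrn lies within the span of Glp2r on the other strand, at 0.652 to 1.38 FPKM, but shares 0 exon bases with it.

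Rom1 and Prph2 are tetraspanins that shape the rims of outer-segment discs. Rom1 was at 9.03, 8.07 and 3.71 FPKM in Jmjd3-deficient libraries and at 9.51, 10.4 and 6.93 FPKM in controls. cKO_265 was the low library, the groups overlapped, and the log2 fold change of -0.38 (SE 0.29, adjusted p = 0.593) was 0.01 without both Con_253 and cKO_265. Prph2 was at 0.530, 2.08 and 0.324 FPKM in the Jmjd3-deficient libraries and between 0.655 and 0.941 FPKM in the controls, with a log2 fold change of 0.03 (SE 0.30, adjusted p = 0.974) that turned to -0.34 without cKO_263. Rom1 exceeded Prph2 in all 6 libraries.

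Retinoid handling is the role of Rbp3, which carries retinoids between photoreceptors and pigment epithelium, and of Rpe65, the isomerase of the visual cycle in the pigment epithelium. Both were too low to test. Rbp3 was at 0.108, 0.0458 and 0.157 FPKM in Jmjd3-deficient libraries and at 0.178, 0.402 and 0.0791 FPKM in controls, with overlapping groups. Sag, the other uveitis antigen, was above Rbp3 in every library. Rpe65 was at 0.069, 0.167 and 0.0813 FPKM in the Jmjd3-deficient libraries and at 0.430, 0.275 and 0.235 FPKM in the controls. The groups of Rpe65 did not overlap, a pattern shared, as for Pde6a, by 10% of genes under the level for testing.

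Crx and Nrl are the transcription factors that set photoreceptor and rod identity. Crx was at 3.53, 1.72 and 1.59 FPKM in Jmjd3-deficient libraries and at 3.39, 3.02 and 1.97 FPKM in controls. Nrl was at 1.56, 1.45 and 1.14 FPKM in Jmjd3-deficient libraries and at 3.06, 1.503 and 1.76 FPKM in controls. In both genes the groups overlapped, and the log2 fold changes were -0.24 for Crx (SE 0.26, adjusted p = 0.721) and -0.35 for Nrl (SE 0.22, adjusted p = 0.4999). Crx was above Nrl in all 6 libraries.

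The alpha crystallins differed in level and in the sign of their differences, and Cryab had the highest mean of the lens set. Cryab, which muscle, heart and brain also use as a chaperone, was at 153.2, 146.8 and 155.8 FPKM in Jmjd3-deficient libraries and at 142.1, 120.2 and 88.5 FPKM in controls. All 3 Jmjd3-deficient values lay above the controls, but Con_253 came within a few FPKM of them. Means were 151.9 ± 4.64 FPKM in Jmjd3-deficient and 116.9 ± 26.9 FPKM in control cells (SD, n = 3 each), a log2 fold change of 0.40 (SE 0.18) that did not pass (limma adjusted p = 0.353, unadjusted p = 0.0553). It was 0.10 with libraries scaled to the same sum and 0.22 without Con_264.

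Cryaa, the alpha crystallin found mainly in the lens, was at 7.79, 10.2 and 6.37 FPKM in Jmjd3-deficient libraries and at 10.3, 12.7 and 9.82 FPKM in controls. Its groups overlapped through cKO_263 and Con_264, and its log2 fold change was -0.40 (SE 0.20, adjusted p = 0.391). The annotation (GENCODE M21) places an antisense transcript over 194 of its 1194 exon bases, and strand was not given for the values. Cryab exceeded Cryaa in every library.

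**Figure D3:**
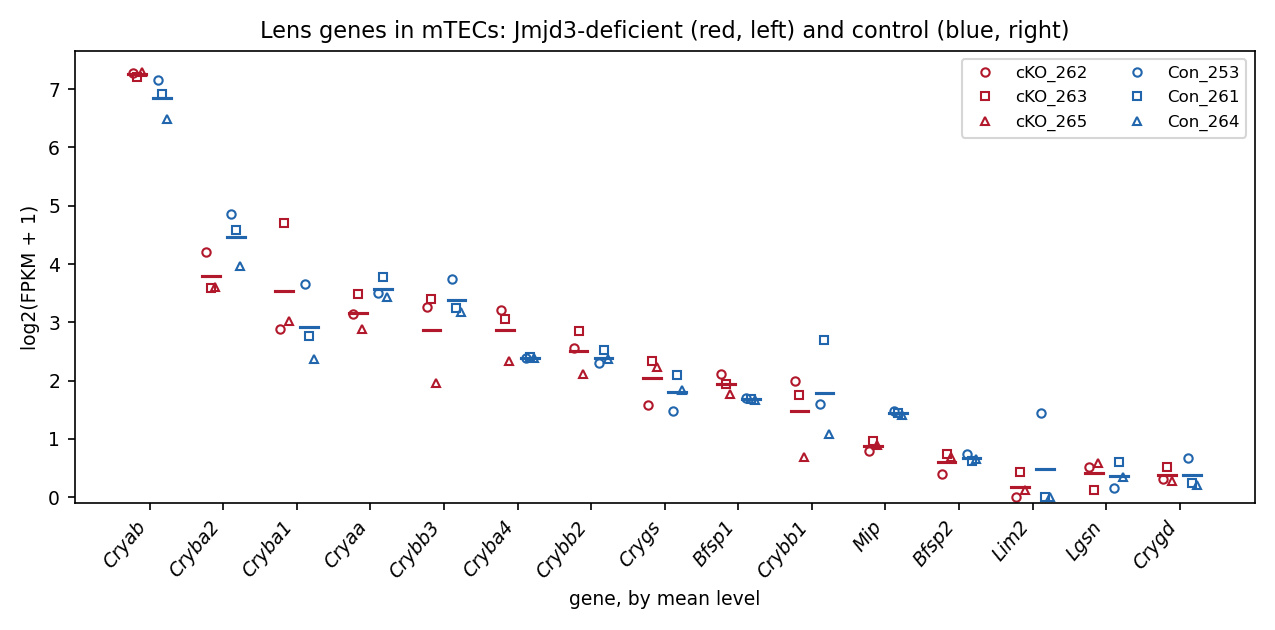
Levels of the 15 lens genes as log2(FPKM + 1), ordered by their mean, with 1 point per library (red and left, Jmjd3-deficient; blue and right, control) and a bar at each group's mean. Cryab lies far above the rest, and Cryab, Bfsp1 and Mip are the genes whose groups do not overlap.

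The 6 beta crystallins split evenly, 3 with higher and 3 with lower means on the log scale. Cryba2, the next gene after Cryab, was at 17.5, 11.04 and 11.2 FPKM in Jmjd3-deficient libraries and at 27.9, 23.04 and 14.6 FPKM in controls. Only cKO_262 and Con_264 crossed. The means were 13.3 ± 3.72 FPKM in Jmjd3-deficient and 21.9 ± 6.72 FPKM in control cells (SD, n = 3 each), with a log2 fold change of -0.67 (SE 0.26, limma unadjusted p = 0.0332, adjusted p = 0.291). It was -0.38 without both Con_253 and cKO_265, and it passed with library weights (adjusted p = 0.0122), a setting that called 3025 of all 15720 genes.

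Cryba1 showed how far 1 library can set a mean. It was at 6.37, 25.1 and 7.12 FPKM in Jmjd3-deficient libraries and at 11.6, 5.80 and 4.16 FPKM in controls. cKO_263 was the high one, the groups overlapped, and the log2 fold change of 0.61 (SE 0.50, adjusted p = 0.615) had its lowest alternative value at 0.02. Cryba1 lies inside the span of Nufip2 on the other strand, which was at 2.06 to 3.03 FPKM and shares 0 exon bases with it. Cryba2 exceeded Cryba1 in all 3 controls and in 2 Jmjd3-deficient libraries.

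Cryba4 and Crybb1 are neighbours with 3318 bases between their starts and opposite orientations. Cryba4 was at 8.27, 7.27 and 4.06 FPKM in Jmjd3-deficient libraries and at 4.24, 4.27 and 4.22 FPKM in controls. The controls were nearly equal, and cKO_265 lay just below them while the other Jmjd3-deficient libraries lay above (log2 fold change 0.48, SE 0.24, adjusted p = 0.398). Crybb1 was at 2.96, 2.37 and 0.613 FPKM in Jmjd3-deficient libraries and at 2.02, 5.50 and 1.12 FPKM in controls (log2 fold change -0.32, SE 0.45, adjusted p = 0.794).

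Crybb2 and Crybb3 lie in tandem on chromosome 5, 7072 bases apart. Crybb2 ranged from 3.34 to 6.19 FPKM in Jmjd3-deficient and from 3.92 to 4.73 FPKM in control libraries (log2 fold change 0.11, SE 0.21, adjusted p = 0.852). Crybb3 was at 8.58, 9.54 and 2.90 FPKM in Jmjd3-deficient libraries and at 12.4, 8.53 and 8.01 FPKM in controls. Its low library was cKO_265, and the log2 fold change of -0.52 (SE 0.37, adjusted p = 0.553) was 0.12 without both Con_253 and cKO_265. Of the gamma crystallins, Crygs was at 1.99 to 4.06 FPKM in Jmjd3-deficient and 1.78 to 3.27 FPKM in control libraries (log2 fold change 0.25, SE 0.26, adjusted p = 0.703). Crygd, whose sequence is close to that of other gamma crystallins, stayed between 0.157 and 0.598 FPKM and was not tested.

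Mip, aquaporin-0, is the main membrane protein of lens fibres. It was at 0.739, 0.956 and 0.859 FPKM in Jmjd3-deficient libraries and at 1.80, 1.71 and 1.65 FPKM in controls. The groups were apart and each was tight, with means of 0.851 ± 0.109 FPKM in Jmjd3-deficient and 1.72 ± 0.075 FPKM in control cells (SD, n = 3 each). The log2 fold change was -0.56 (SE 0.16, limma unadjusted p = 0.00741) and did not pass (adjusted p = 0.188). It lay between -0.94 and -0.43 in the 14 alternatives that kept it, with adjusted p from 0.0192 with library weights to 0.549 without Con_261. Library weights called 3025 of all 15720 genes. Of the 2143 exon bases of Mip (chr10:128225838-128231811, mm10, plus strand, protein coding), 1222 lie under a long noncoding transcript of the other strand, Gm26847. Strand was not given for the values, so reads of Mip and Gm26847 cannot be told apart.

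The beaded filament proteins are filensin, Bfsp1, and phakinin, Bfsp2. Bfsp1 was at 3.35, 2.86 and 2.42 FPKM in Jmjd3-deficient libraries and at 2.27, 2.201 and 2.19 FPKM in controls. Its groups did not overlap, but the difference was small (log2 fold change 0.26, SE 0.17, limma unadjusted p = 0.1604, adjusted p = 0.5201). With libraries scaled to the same sum it was 0.05. Bfsp2 ranged from 0.312 to 0.674 FPKM in Jmjd3-deficient and from 0.535 to 0.664 FPKM in control libraries (log2 fold change -0.06, SE 0.17, adjusted p = 0.907), and its sign turned in 4 alternatives. Lim2, a membrane protein of lens fibres, was listed at 0 in cKO_262 and was at 0.344 and 0.0884 FPKM in cKO_263 and cKO_265, while among controls it was at 1.72 FPKM in Con_253 and listed at 0 in Con_261 and Con_264. Lgsn, lengsin, an enzyme-like lens protein related to glutamine synthetase, stayed between 0.0929 and 0.526 FPKM. Neither Lim2 nor Lgsn was tested.

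Individual libraries differed from one another more for the tested members than for tested genes in general. The median residual SD on the log2(FPKM + 1) scale was 0.397 for the 12 retina genes and 0.3 for the 12 lens genes. It was 0.234 for all tested genes and 0.238 for the 52 tested genes of the other retina and lens lists described below. The larger spread was thus seen in the members and not in eye genes in general. For genes averaging under 10 FPKM it was 0.378 over 21 members and 0.249 over 9425 tested genes. These are descriptions with no test. Of the 24 tested members, cKO_265 was the lowest library for 8 retina and 5 lens genes, and it was the lowest for 30.2% of all tested genes. cKO_263 was the highest library for 4 genes of each set, against 14.8% of all tested genes. Relative to the control mean, the median tested retina gene was at -0.018, 0.121 and -0.428 in cKO_262, cKO_263 and cKO_265, and at 0.03, 0.145 and -0.117 in Con_253, Con_261 and Con_264. The median lens gene was at -0.089, 0.169 and -0.164 in Jmjd3-deficient libraries and at 0.032, 0.037 and -0.086 in controls. Over all tested genes the median was at -0.024, -0.033 and -0.058 in Jmjd3-deficient libraries and at 0.001, 0.006 and -0.01 in controls.

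Other genes of vision and of the lens were read from lists beside the members. Values were found for 84 such genes, of which 52 were tested, and 0 passed over all genes (limma). At an unadjusted p under 0.05, 4 were higher and 6 lower in Jmjd3-deficient cells, with the same background of 6.81% and 7.82%. The median log2 fold change was -0.07 over 14 other phototransduction genes, -0.10 over 10 other visual cycle genes, -0.08 over 14 other photoreceptor factors and structural genes, 0.12 over 10 other lens structural genes and -0.37 over 4 lens transcription factors.

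Gnb3, a G-protein beta subunit of cones that also serves taste transduction, was at 22.2, 25.6 and 13.0 FPKM in Jmjd3-deficient libraries and at 83.1, 45.0 and 58.0 FPKM in controls. Its groups were apart (log2 fold change -1.57, SE 0.29, limma adjusted p = 0.113), and the tuft-like marker genes of taste signalling moved the same way, as given above. Opn1sw, the short-wavelength cone opsin, was at 1.52, 2.63 and 2.17 FPKM in Jmjd3-deficient libraries and at 0.756, 1.12 and 0.811 FPKM in controls (log2 fold change 0.70, SE 0.20, adjusted p = 0.181). Rgs9, which speeds transducin shut-off, was at 1.27, 0.503 and 1.16 FPKM in Jmjd3-deficient libraries and at 1.82, 1.79 and 2.21 FPKM in controls (log2 fold change -0.59, SE 0.21, adjusted p = 0.244). The 3 phototransduction genes thus showed higher and lower values side by side.

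In the visual cycle list the retinaldehyde-binding protein gene Rlbp1 averaged 3.20 ± 0.720 FPKM in Jmjd3-deficient and 4.83 ± 0.704 FPKM in control cells (SD, n = 3 each; limma adjusted p = 0.302). Best1, a chloride channel of the pigment epithelium, averaged 1.03 ± 0.509 FPKM in Jmjd3-deficient and 2.04 ± 0.672 FPKM in control cells (adjusted p = 0.304), and Lrat, which esterifies retinol, averaged 3.60 ± 0.357 FPKM in Jmjd3-deficient and 2.41 ± 0.973 FPKM in control cells (adjusted p = 0.402). Among photoreceptor factors and structural genes, the cadherin gene Cdhr1 was far above the others. It averaged 282.1 ± 15.1 FPKM in Jmjd3-deficient and 202.6 ± 1.30 FPKM in control cells (log2 fold change 0.47, SE 0.12, adjusted p = 0.165). Aipl1, a chaperone needed to assemble the phosphodiesterase, averaged 2.10 ± 0.642 FPKM in Jmjd3-deficient and 3.96 ± 0.127 FPKM in control cells (log2 fold change -0.70, SE 0.19, adjusted p = 0.181). Thrb, a thyroid hormone receptor that guides cone opsin choice, averaged 36.9 ± 13.3 FPKM in Jmjd3-deficient and 21.2 ± 1.501 FPKM in control cells (log2 fold change 0.71, SE 0.24, adjusted p = 0.228).

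In the lens lists Cryga, another gamma crystallin, was at 4.197, 2.57 and 4.16 FPKM in Jmjd3-deficient libraries and at 0.304, 1.14 and 1.002 FPKM in controls. Its groups were apart (log2 fold change 1.37, SE 0.25, limma adjusted p = 0.113). The Cryga sequence is close to those of other gamma crystallins, and how shared reads were counted is not given, so its value is uncertain. Crygc averaged 1.14 ± 0.652 FPKM in Jmjd3-deficient and 1.56 ± 0.281 FPKM in control cells (adjusted p = 0.617), and the apoptosis inhibitor gene Birc7 averaged 1.20 ± 0.453 FPKM in Jmjd3-deficient and 0.748 ± 0.107 FPKM in control cells (adjusted p = 0.519). Hsf4, the heat-shock factor needed for lens fibre maturation, was at 0.487, 0.411 and 0.589 FPKM in Jmjd3-deficient libraries and at 2.10, 1.44 and 1.61 FPKM in controls (log2 fold change -0.85, SE 0.17, adjusted p = 0.119). Every control of Hsf4 lay above every Jmjd3-deficient library. Prox1 averaged 0.735 ± 0.734 FPKM in Jmjd3-deficient and 1.51 ± 0.636 FPKM in control cells (adjusted p = 0.428), and Maf 6.73 ± 0.413 FPKM in Jmjd3-deficient and 5.81 ± 0.800 FPKM in control cells (adjusted p = 0.640).

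Regulators of tissue-restricted genes were read in the same libraries. Aire was at 504.2, 455.7 and 317.4 FPKM in Jmjd3-deficient libraries and at 398.9, 348.0 and 230.3 FPKM in controls, and its groups overlapped (log2 fold change 0.40, SE 0.25, limma adjusted p = 0.5004). The level of Fezf2 ranged from 192.5 to 235.4 FPKM in Jmjd3-deficient and from 186.9 to 240.0 FPKM in control libraries (log2 fold change 0.01, SE 0.16, adjusted p = 0.990). Its sign differed in 6 alternatives.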

How the data were processed

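RNA of 6 libraries of sorted mTECs (3 Jmjd3-deficient, 3 control) was analysed. Per the labels' protocols, RNA was reverse transcribed and amplified with a kit meant for single cells. The tools named are Bowtie2 2.2.5 and Cufflinks, and the build mm10, per the submitters' processing notes. The authors deposited FPKM, 1 table per library. The version of Cufflinks, the annotation, strand and the handling of shared reads are not given in the sources used here. Depth is unknown, so no counting error is given.

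Each table held 25025 rows for 20468 symbols. The 44 rows of 25 symbols turned into dates were left out (0.093% to 0.138% of summed FPKM), and rows of a symbol were summed. Of the members, Crx alone had more than 1 row. Genes averaging at least 0.5 FPKM (15720) entered a limma fit (3.58.1, R 4.3.3) of log2(FPKM + 1) (eBayes with trend, 2-sided, Benjamini-Hochberg over all tested genes, threshold 0.05), a scale that understates changes of low genes. The fit was checked on simulated data. Changes were set there only in genes above a floor level and were larger than those of the members. That check therefore does not cover small changes of low genes. Nothing says that the numbered libraries are separate animals, so p-values measure the spread between these libraries. Coordinates are the tables' with starts raised by 1 base, and strand and overlaps come from GENCODE M21. Members with an unadjusted p under 0.05 or groups that do not overlap, and the 3 highest of each set, were to be given in every library with their test; for the other tested members this was extended after their values were seen. From each other list the 3 genes with the smallest p are named. An item withheld from the text is not reported here. Members and lists were chosen with earlier results of these data known.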

Additional observations from a re-analysis of the deposited data

How the results depend on the processing

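Alternatives were a pseudocount of 0.1, no filter, a filter of 5 FPKM, quantile normalization, median centring, scaling each library to an equal summed FPKM, limma arrayWeights, the highest row of a symbol, leaving out each library, and leaving out Con_253 and cKO_265 together. No paired analysis was possible because the groups share no replicate numbers.

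Over all genes 12 changed (3 higher, 9 lower). Counts were 207 (10 higher, 197 lower) with libraries scaled to an equal sum, which moved the median of all genes to -0.296, and 3025 (1367 higher, 1658 lower) with arrayWeights, whose weights ran from 0.263 for cKO_265 to 8.72 for Con_261. With 1 library left out they ranged from 2 (without Con_253, Con_261 or Con_264) to 23 (without cKO_262), and were 19 without cKO_265. Genes tested were 16868 with that scaling and 15720 with arrayWeights. Retina genes called were 0 in the reported fit, 1 of 13 (Guca1a) with that scaling and 2 of 12 (Guca1a and Pde6h) with arrayWeights. Lens genes called were 0, and 4 of 12 with arrayWeights (Cryba1, Cryba2, Cryba4 and Mip). Other retina and lens genes called were 0, 2 of 61 with scaling and 12 of 52 with arrayWeights. The member counts with arrayWeights stand beside 3025 of all 15720 genes called. In every other alternative these counts stayed at 0. Scaling to an equal sum gave medians of -0.27 for retina and -0.14 for lens, each nearer 0 than the -0.296 of all genes. With 1 library left out, medians ranged from -0.16 to 0.0045 for retina and from -0.09 to 0.16 for lens.

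Signs turned in 36 cases, none of them called. Scaling to an equal sum gave Gnat1 -0.0093, Prph2 -0.17, Crybb2 -0.14 and Fezf2 -0.29. Quantile normalization gave Sag 0.10, Rcvrn 0.042, Bfsp2 0.087 and Fezf2 -0.27. Median centring gave Sag 0.065, Rcvrn 0.056 and Bfsp2 0.022. With arrayWeights Rcvrn was 0.012, Bfsp2 0.042 and Fezf2 -0.045. Prph2 was -0.10 at a pseudocount of 0.1. Without both Con_253 and cKO_265 Rcvrn was 0.080, Rom1 0.0072, Crx 0.022, Crybb3 0.12 and Crygs -0.011. With 1 library left out, the log2 fold change ranged from -0.16 to 0.55 for Gnat1, -0.71 to 0.11 for Pde6h, -0.25 to 0.25 for Sag, -0.22 to 0.10 for Rcvrn, -0.34 to 0.27 for Prph2, -0.67 to 0.14 for Crybb1, -0.056 to 0.31 for Crybb2, -0.13 to 0.049 for Bfsp2 and -0.11 to 0.10 for Fezf2. The causes were not tested. The sign was kept in every alternative with a value by Guca1a, Pde6b, Pde6g, Nrl, Cryaa, Cryab, Cryba1, Cryba2, Cryba4, Mip and Bfsp1. Guca1b kept it in 13, but without cKO_263 it was under the filter, with a plain difference of -0.24. Without read counts, the precision of genes under 1 FPKM is unknown.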
